A study of Mus musculus with 28 samples.

Results

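The comparison described here is between livers of Fah-/- p21-/- mice and of Fah-/- mice, both without the protective drug NTBC, and it asks what loss of p21 changed in the injured organ. Its members were chosen by genotype and dose in the labels: the 4 arrays of Fah-/- p21-/- liver with 0% NTBC and the 4 of Fah-/- liver with 0% NTBC, together 8 of the 28 arrays of the series. All mice of the series lacked fumarylacetoacetate hydrolase (Fah), also the controls, and the other 5 groups were Fah-/- mice at 2 further NTBC doses and Fah-/- p53-/- mice at 3 doses. Full dosing meant drinking water with 7.5 mg/L NTBC. The sources used here do not give age, strain, the kind of p21 allele or the time without the drug.

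Fah is the final enzyme of tyrosine breakdown, and without it toxic tyrosine metabolites damage hepatocytes. NTBC (nitisinone) blocks an earlier enzyme of the same pathway, Hpd, and so keeps these metabolites from forming. p21, encoded by Cdkn1a, is a target of p53 that binds and inhibits cyclin-dependent kinases (CDKs), which keeps RB family proteins active and cell cycle genes silent. Genes of S phase are mostly repressed through E2F sites in their promoters, and genes of mitosis through a cell cycle homology region (CHR) read by the DREAM complex, whose core includes Lin9 and Lin54.

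Levels are log2 processed signals relative to the 75th percentile of the same array, and differences are log2 fold changes, Fah-/- p21-/- minus Fah-/-, ± SE (n = 4 arrays per group). The SE rests on a spread of each gene pooled over the 7 groups of all 28 arrays. It can be larger or smaller than the 8 arrays alone would give. The 75th percentile ranged from 393 to 602 over the 8 arrays, between 60.3% and 66.6% of probes were well above background, and the hepatocyte gene Alb was at 8.55 to 8.96 on all 8. The RNA of Fah-/- p21-/- replicates 1 and 2 was female, with Xist at 3.49 and 3.39 and Ddx3y at -7.17 and -7.07. That of replicates 3 and 4 was male, with Xist at -6.42 and -6.75 and Ddx3y at 1.17 and 1.28, as was that of the 4 Fah-/- arrays. The female arrays lay on a slide without Fah-/- arrays, while Fah-/- p21-/- replicates 3 and 4 shared a slide with Fah-/- replicates 3 and 4. Within the Fah-/- p21-/- group, female sex and slide cannot be told apart. The female arrays also lay farther from their group mean (SD over genes 0.496 and 0.415) than the other 6 arrays (0.265 to 0.373). Results are therefore also given for the 2 male Fah-/- p21-/- arrays against the 4 Fah-/- arrays. Nothing in the labels says that each sample is a different animal, so the spread behind the p-values is that between samples and may be technical.

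The targeted gene was read first. Cdkn1a was at 4.30, 4.17, 4.41 and 4.25 in Fah-/- replicates 1 to 4 and at 3.09, 3.15, 3.57 and 3.15 in Fah-/- p21-/- replicates 1 to 4. The groups did not overlap, yet all 4 knockout arrays were far above the mean of -1.40 in Fah-/- liver on full NTBC. The difference of -1.04 ± 0.43 did not pass in the fit over all genes (limma, adjusted p = 0.139), and an exact permutation test of this gene alone gave a two-sided p of 0.0286, the smallest that 70 arrangements allow. In limma fits with another spread it did pass: in the 8 arrays alone the adjusted p was 0.0144 and with slide as a fixed block 0.0400, and 5 of 25 alternatives called it lower. The sources used here do not say whether the probe lies in the deleted part, so it does not check the label. Fah differed by -0.21 ± 0.21 (adjusted p = 0.583) and Trp53, which encodes p53, by 0.03 ± 0.14 (0.931).

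Of 20300 features tested, 1529 were called at an adjusted p under 0.05, a share of 7.53%. Of these 800 (3.94%) were higher and 729 (3.59%) lower without p21, and 4711 features had an unadjusted p under 0.05. Changes of at least 2-fold made up 597 of the calls (2.94% of all features). All 4 Fah-/- p21-/- arrays lay above all 4 Fah-/- arrays for 1308 features (6.44%) and below them for 1190 (5.86%). The median log2 fold change over all features was 0.02. With the 2 female arrays left out, 655 features (3.23%) were called, 541 of them among the 1529 and with the same sign, and all 1529 kept their direction. With the 2 male arrays left out instead 1667 (8.21%) were called, and within the shared slide 323 (1.59%). With slide as a fixed block over the 12 arrays without NTBC 85 were called, and in a fit to the 8 arrays alone 352. The counts below rest on a spread estimated from all 28 arrays. As RNA came from whole liver, fewer cells of a type and less RNA per cell cannot be told apart.

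**Figure D1:**
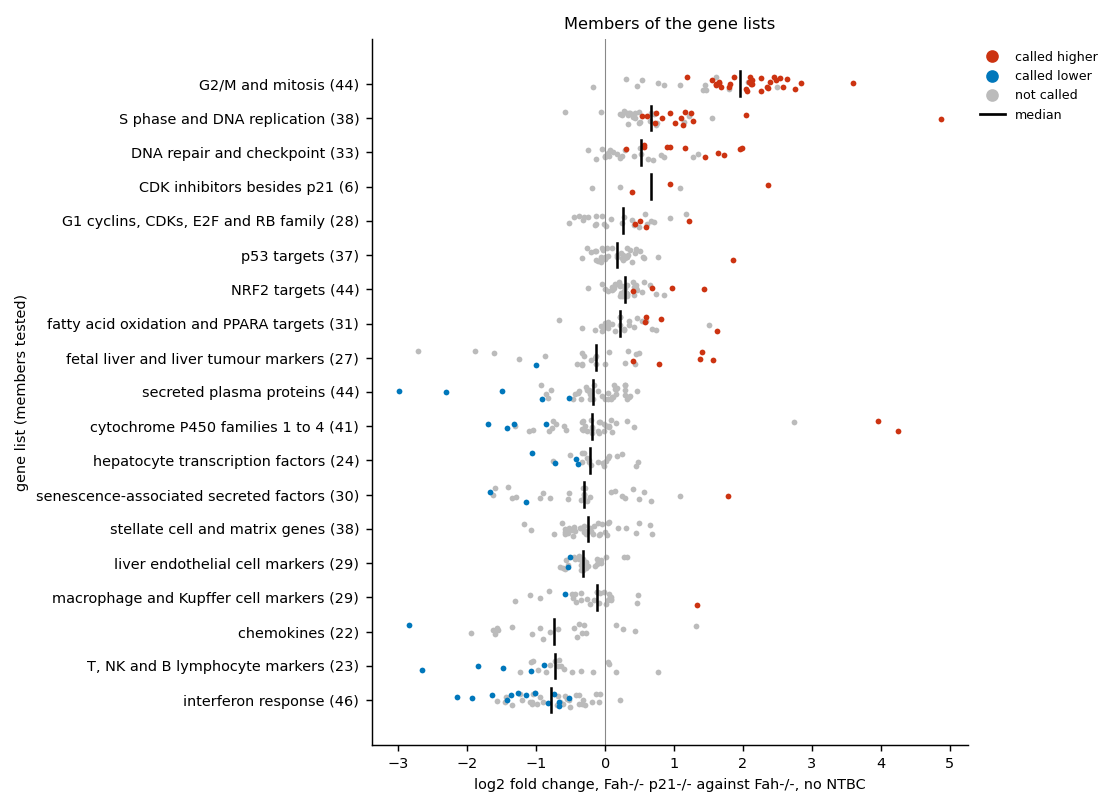
Log2 fold change of each tested member of 19 gene lists (x axis, Fah-/- p21-/- against Fah-/- without NTBC), 1 point per gene, with the list's median as a black line and the number tested in parentheses. Called members of the mitosis list (30 of 44) all lie to the right of 0 and those of the interferon response list (13 of 46) all to the left.

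Genes of mitosis were higher without p21. Of 44 tested genes of G2/M and mitosis 30 rose, none fell and the median log2 fold change was 1.96, beside 3.94% of all features called higher and a median of 0.02. The mean level of the list was -0.94, -1.67, -2.45 and -1.69 in Fah-/- replicates 1 to 4 and -0.69, 0.28, 0.69 and 0.32 in Fah-/- p21-/- replicates 1 to 4. The groups did not overlap, but female Fah-/- p21-/- replicate 1 was close to Fah-/- replicate 1. The median level of the list's genes was -3.30 in Fah-/- liver on full NTBC, -1.69 without NTBC, -0.16 without NTBC and p21, and -0.53 in Fah-/- p53-/- liver without NTBC, which was all female. The arrays on full NTBC lay on a slide of their own, and for that group the dose cannot be told apart from the slide.

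The promoters of these genes are shown first, because repression downstream of p21 is known to run through short sequence elements. Below are the 100 bases before the start of 4 genes of mitosis and of Orc1, a gene of replication origins, 5′ to 3′ on the gene's strand (RefSeq, GRCm38.p6). Capitals mark the CHR motif TTTGAA and the E2F motif TTTNNCGC on either strand.
Cdk1: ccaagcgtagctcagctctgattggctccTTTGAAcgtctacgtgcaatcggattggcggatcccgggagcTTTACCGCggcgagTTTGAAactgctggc
Cdc20: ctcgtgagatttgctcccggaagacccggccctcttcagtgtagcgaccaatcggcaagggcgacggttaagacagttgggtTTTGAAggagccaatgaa
Ube2c: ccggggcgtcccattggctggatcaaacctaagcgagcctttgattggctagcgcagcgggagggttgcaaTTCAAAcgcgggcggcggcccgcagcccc
Top2a: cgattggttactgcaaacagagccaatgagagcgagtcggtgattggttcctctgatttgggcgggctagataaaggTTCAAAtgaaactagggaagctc
Orc1: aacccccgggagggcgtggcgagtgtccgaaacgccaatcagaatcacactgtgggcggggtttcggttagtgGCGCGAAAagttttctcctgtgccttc
They lie at chr10:69352913-69353012 (minus strand), chr4:118437344-118437443 (minus), chr2:164769829-164769928 (plus), chr11:99024190-99024289 (minus) and chr4:108579354-108579453 (plus). Cdk1 carried both motifs, Cdc20, Ube2c and Top2a the CHR motif and Orc1 the E2F motif. Orc1 is shown because it carries that motif, and the same 100 bases of Rfc4, Mcm7, Cdc45 and Prim1, also of S phase, held neither.

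Over windows of 300 bases (250 before to 50 after the start), TTTGAA on either strand was found in 25 of the 38 tested mitosis genes with a promoter in the table (65.8%), in 4 of 31 genes of S phase (12.9%) and in 18.1% of all 27025 promoters. TTTNNCGC was found in 14 of the 31 S phase genes (45.2%), in 4 of the 38 mitosis genes and in 5.27% of all promoters. CCAAT was found in 28 of 38, 19 of 31 and 37.9%. Within the mitosis list the median log2 fold change was 1.79 for the 25 genes with TTTGAA and 2.07 for the 13 without, and 16 of the 25 and 10 of the 13 were called. A match of letters is not a measured binding site.

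Regulators of entry into mitosis rose. Ccnb1, the cyclin that activates Cdk1 for mitosis, was at -2.57, -3.96, -6.36 and -3.79 in Fah-/- replicates 1 to 4 and at -1.57, -0.58, 0.03 and -0.16 in Fah-/- p21-/- replicates 1 to 4. All 4 knockout arrays were above all 4 controls, of which 3 were well above background, and replicate 3 was the lowest. The difference was 3.60 ± 0.88 (adjusted p = 0.0146), and without Fah-/- replicate 3 its adjusted p was 0.0506. Cdk1 itself, the kinase of mitosis, was at -0.70, -1.66, -2.92 and -1.44 against -0.21, 1.26, 1.87 and 1.34. It rose by 2.75 ± 0.74 (adjusted p = 0.0247), a call that was lost in 6 of the 8 fits that left out 1 array, with a highest adjusted p of 0.0704. Cdc25c, the phosphatase that switches Cdk1 on, rose by 2.64 ± 0.49 (0.00182), with 3 of the 4 Fah-/- arrays well above background. With normexp background correction the Cdc25c difference was 0.98 (adjusted p = 0.343), while Ccnb1 (0.0125) and Cdk1 (0.0184) were called.

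Genes of the exit from mitosis rose by similar amounts. Cdc20, an activator of the anaphase-promoting complex, was at 0.88, 0.44, -0.19 and 0.16 in Fah-/- liver and at 2.01, 3.33, 3.80 and 3.49 without p21. Every knockout array was above every control, and female replicate 1 was the lowest of the 4. The difference was 2.84 ± 0.61 (adjusted p = 0.00653). Ube2c, the ubiquitin-conjugating enzyme of the same complex, rose by 2.59 ± 0.59 (0.00941). Both calls were kept in all 8 fits that left out 1 array.

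Genes of the centrosome, spindle and cell division rose as well. Nek2, a centrosome kinase, was at -2.24, -2.20, -2.05 and -2.26 in Fah-/- liver and at -0.96, 0.29, 0.25 and 0.17 without p21, a difference of 2.12 ± 0.44 (adjusted p = 0.00478). Its Fah-/- arrays lay close together and the knockout arrays above them, female replicate 1 the lowest. The motor protein gene Kif4 rose by 2.05 ± 0.43 (0.005), and Anln, a scaffold of the cleavage furrow, by 2.12 ± 0.47 (0.0081), with Anln well above background on 2 of the 4 Fah-/- arrays. With normexp the difference was 1.54 for Kif4 (adjusted p = 0.01665) and 0.76 for Anln (0.6025). Further called genes were the kinases Plk1 (2.27 ± 0.56), Aurka (1.87 ± 0.45) and Plk4 (1.66 ± 0.39), the kinetochore motor Cenpe (2.36 ± 0.55) and Foxm1, a transcription factor of mitotic genes (2.13 ± 0.60). Aunip, which encodes a partner of Aurka and stood outside the list, was among the 15 largest rises at 3.44 ± 0.84 (0.014).

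Some standard proliferation markers did not pass. Mki67, which encodes the Ki-67 antigen, was at 1.28, 0.36, -1.05 and 0.14 in Fah-/- liver and at 0.82, 1.84, 2.09 and 1.69 without p21. The groups overlapped through replicate 1 of each, and the difference of 1.42 ± 0.67 had an adjusted p of 0.201. Ccna2, a cyclin of S phase and G2, differed by 1.45 ± 0.66 (0.188) and also overlapped. Top2a, the topoisomerase that untangles sister chromatids, was called at 2.27 ± 0.65 (0.0349), but in 2 of 8 fits with 1 array left out.

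With the female arrays left out, 22 mitosis genes were called higher (1.85% of all features) and the median was 2.34. Without the 2 male arrays 4 were (4.41% of all features), with a median of 1.60. Leaving out single arrays gave between 16 and 33 called genes, with 16 without Fah-/- p21-/- replicate 3 and 18 without Fah-/- replicate 4. Within the slide that held both groups 11 were called (0.837% of all features), in the 8 arrays alone 16, in the 12 arrays without NTBC alone 4, with the slide as a fixed block 2 and with normexp background correction 18. In each of these settings 43 of the 44 differences were positive.

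**Figure D2:**
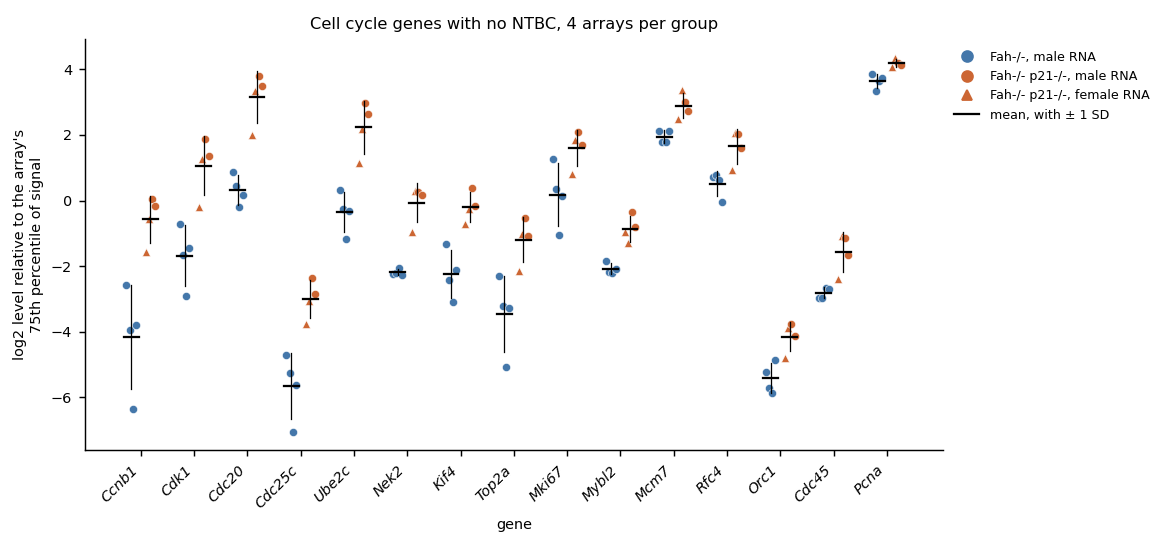
Log2 level relative to the array's 75th percentile (y axis) of 15 cell cycle genes in each of the 4 Fah-/- (blue) and 4 Fah-/- p21-/- (orange) arrays without NTBC, triangles marking female RNA, with means and SD bars. The lowest Fah-/- p21-/- point is replicate 1, a female, for genes such as Ccnb1 (-1.57) and Cdc20 (2.01), and the groups overlap for Mki67.

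Genes of S phase were also higher, with a smaller median. Of 38 tested genes of DNA replication 14 rose and none fell, with a median of 0.66, beside 3.94% of all features called higher. The mean level of the list was -0.07, -0.18, -0.44 and 0.11 in Fah-/- replicates 1 to 4 and 0.06, 1.09, 0.93 and 0.52 in Fah-/- p21-/- replicates 1 to 4. Female replicate 1 was within the range of the Fah-/- arrays and the other 3 were above it. Without Fah-/- p21-/- replicate 1, 19 genes were called, and without replicate 2 or 3 of that group 5 or 6. Without Fah-/- replicate 1, 2 or 3, 9, 6 and 7 were called, and without both female arrays 9 (1.85% of all features). In the 8 arrays alone 1 was called and with normexp 4. Within the shared slide 3 were called (0.837% of all features) and with slide as a fixed block 1.

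Prim2, the large subunit of the primase that starts each new DNA strand, stood far outside the rest of the list. It was at -4.84, -5.18, -5.62 and -4.81 in Fah-/- liver and at -0.29, -0.02, -0.24 and -0.40 without p21. The difference was 4.88 ± 0.18 (adjusted p = 6.5e-15), and its call was kept under all 25 alternatives. The mean level was -4.18 in Fah-/- liver on full NTBC and -4.51 in Fah-/- p53-/- liver without NTBC. The small primase subunit, Prim1, rose by 1.16 ± 0.27 (0.00959).

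Factors that load and run the replication fork rose modestly. Rfc4, a subunit of the clamp loader, was at 0.73, 0.77, 0.61 and -0.03 against 0.92, 2.07, 2.02 and 1.60 and rose by 1.13 ± 0.22 (adjusted p = 0.00271). Mcm7, a subunit of the replicative helicase, rose by 0.95 ± 0.19 (0.00439), from 1.77 to 2.14 in Fah-/- arrays to 2.49 to 3.38 without p21. Orc1, a subunit of the origin recognition complex, rose by 1.27 ± 0.26 (0.0037), with 2 of 4 Fah-/- arrays well above background. With normexp the Orc1 difference was 0.51 (adjusted p = 0.9317), while Rfc4 (0.01665) and Mcm7 (0.02017) were called. Cdc45, a helicase cofactor, rose by 1.24 ± 0.31 (0.0151), with an adjusted p of 0.0515 without Fah-/- p21-/- replicate 2. Pcna, the sliding clamp, rose by 0.54 ± 0.15 (0.0279), a call lost without Fah-/- replicate 2 and without Fah-/- p21-/- replicate 2 or 3. Mcm2, of the same helicase as Mcm7, differed by 0.43 ± 0.27 (0.35).

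The machinery that p21 acts on before S phase was read next. Of 28 tested G1 cyclins, CDKs, E2F and RB family genes 4 rose and none fell, with a median of 0.26, beside 3.94% of all features called higher. The 4 were also called without the female arrays. Mybl2, the MYB protein that joins the DREAM core to switch on mitotic genes, was at -1.84, -2.19, -2.21 and -2.08 in Fah-/- liver and at -0.95, -1.31, -0.36 and -0.81 without p21. It rose by 1.22 ± 0.15 (adjusted p = 3.1e-05), and the call was lost in 1 of 25 alternatives. The core subunits Lin9 (0.60 ± 0.15) and Lin54 (0.51 ± 0.14) and the CDK subunit Cks2 (0.43 ± 0.09) rose by smaller amounts. The Lin9 and Lin54 arrays overlapped and these calls were kept in 4 and 2 of the 8 fits with 1 array left out. Ccne1, the cyclin of S phase entry, differed by -0.52 ± 0.39 (0.462) and E2f1 by 0.38 ± 0.31 (0.486).

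Of 6 tested CDK inhibitors besides p21, 3 rose and none fell, beside 3.94% of all features called higher. Cdkn2c, which encodes p18, was at 0.00, -0.32, -0.26 and -0.07 in Fah-/- liver and at 0.80, 1.19, 0.87 and 0.22 without p21. The arrays did not overlap, and it rose by 0.94 ± 0.16 (adjusted p = 0.00105). Cdkn1b, which encodes p27, rose by 0.39 ± 0.11 (0.0297), a call lost without Fah-/- replicate 1 or 4 and without Fah-/- p21-/- replicate 1 or 2. Cdkn3, a phosphatase named with the inhibitors but expressed with mitotic genes, rose by 2.36 ± 0.68 (0.0357), kept in 2 of these 8 fits.

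Of 37 tested targets of p53, Cdkn1a not counted, 1 rose and none fell, near the shares of all features (3.94% and 3.59%), and the median was 0.17. The mean level of the list was 1.21, 1.27, 1.20 and 1.14 in Fah-/- replicates 1 to 4 and 1.35, 1.48, 1.47 and 1.29 in Fah-/- p21-/- replicates 1 to 4, higher on every knockout array. The called gene was Ckap2, a spindle protein gene, at 1.86 ± 0.50 (adjusted p = 0.0237), a call kept in 4 of 8 fits with 1 array left out. Mdm2, the feedback inhibitor of p53, was at 2.74, 2.96, 2.45 and 2.58 in Fah-/- liver and at 2.47, 2.84, 2.79 and 2.43 without p21, a difference of -0.05 ± 0.12 (0.858). Ccng1 (-0.11 ± 0.20) and the death effector Bax (0.01 ± 0.13) overlapped between groups as well.

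Genes of DNA repair and checkpoints rose beside those of replication. Of 33 tested genes 11 rose and none fell, with a median of 0.53, beside 3.94% of all features called higher. Atm, the kinase that signals double-strand breaks, was at -3.09, -2.93, -2.80 and -3.01 in Fah-/- liver and at -1.50, -1.58, -1.68 and -2.45 without p21. All knockout arrays were higher, male replicate 4 the least, and the difference was 1.16 ± 0.16 (adjusted p = 0.000153). The helicase gene Blm rose by 0.89 ± 0.14 (0.000635) and the ubiquitin ligase gene Rad18, of damage bypass, by 0.94 ± 0.16 (0.000885). Timeless (1.45 ± 0.29) and its partner Tipin (0.57 ± 0.13), which protect replication forks, both rose. These 5 calls were kept in all 8 fits with 1 array left out. Without the female arrays 6 genes of the list were called (1.85% of all features). There were 6 without replicate 2 of either group and 7 without Fah-/- replicate 3. With normexp 3 were called, in the 8 arrays alone 3 and with slide as a fixed block 0.

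In the BCL2 family, which sets the threshold of cell death, 2 of 17 tested genes rose and 3 fell. The median was -0.15, and the shares of all features called were 3.94% higher and 3.59% lower. The apoptosis activators Hrk (0.97 ± 0.27) and Bnip3l (0.34 ± 0.09) rose, while Bcl2l14 (-1.54 ± 0.36), the activator Bid (-0.39 ± 0.12) and the survival factor Mcl1 (-0.30 ± 0.09) fell. None of the 5 was called without the female arrays.

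Of 30 tested senescence-associated secreted factors 1 rose and 2 fell, with a median of -0.31, beside 3.94% and 3.59% of all features. Without the female arrays the rise was kept and neither fall was, and within the shared slide the median was 0.06. Inhba, a subunit of activin, fell by 1.14 (SE 0.30, adjusted p = 0.0219), lost without Fah-/- replicate 1 or 4 or Fah-/- p21-/- replicate 1. Plau, the urokinase gene, was at least 1.89-fold lower (0.0381), a call kept in 3 of 8 fits with 1 array left out. A fold "at least" is the brighter group over the background level of a group that was not well above background on any of its arrays.

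Interferon response genes were lower without p21. Of 46 tested genes 13 fell and none rose, the median was -0.78 and 45 of 46 differences were negative, beside 3.59% of all features called lower. The mean level of the list was 0.61, 1.13, 0.41 and 0.95 in Fah-/- replicates 1 to 4 and -0.40, 0.08, -0.19 and 0.21 in Fah-/- p21-/- replicates 1 to 4. All 4 knockout arrays were below all 4 controls, and female replicate 1 was the lowest.

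Ifit3, an antiviral effector induced by type I interferon, was at 1.99, 2.92, 1.73 and 2.77 in Fah-/- liver and at -0.16, 0.78, -0.32 and 0.53 without p21. The arrays did not overlap, and Ifit3 fell by 2.15 (SE 0.48, adjusted p = 0.00806). The RNA sensor gene Ifih1 differed by -0.74 ± 0.15 (0.00465), and Tap2, a peptide transporter of antigen presentation, by -0.53 ± 0.10 (0.00195). These 3 calls were kept in all 8 fits with 1 array left out and without the female arrays.

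Other called members were Ifit1 (-1.94 ± 0.51), the apoptosis factor Xaf1 (-1.14 ± 0.30), the immunoproteasome subunit Psmb9 (-1.01 ± 0.27), Isg15, a ubiquitin-like modifier (-1.37 ± 0.40), and Irf9, a subunit of the interferon-activated transcription factor (-0.66 ± 0.19). Ifit1, Xaf1 and Psmb9 lost their calls without Fah-/- replicate 2 or 4 and without Fah-/- p21-/- replicate 1, and Psmb9 also without replicate 3 of that group. With 1 array left out between 3 and 17 members were called lower. The 3 stood without Fah-/- replicate 2 or 4 or Fah-/- p21-/- replicate 1. Without the female arrays 4 were (1.38% of all features), in the 8 arrays alone 2, with normexp 1 and with slide as a fixed block 0, when the median was -0.56.

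Lymphocyte markers were lower as well. Of 23 tested T, NK and B cell markers 5 fell, none rose and the median was -0.73, beside 3.59% of all features called lower. The mean level of the list ranged from -2.79 to -2.30 over Fah-/- arrays and from -3.68 to -3.24 without p21. Ms4a1, which encodes the B cell antigen CD20, was at -3.08, -2.22, -2.33 and -2.89 in Fah-/- liver and at -4.13, -4.24, -5.32 and -4.21 without p21. All 4 knockout arrays were lower, male replicate 3 the most, with a difference of -1.85 ± 0.41 (adjusted p = 0.00838). The B cell receptor subunit Cd79b fell by 1.48 (SE 0.38, 0.0185). The Cd79b call was lost without Fah-/- replicate 2 (adjusted p up to 0.0593 with 1 array left out) or Fah-/- p21-/- replicate 3.

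Not all defining lymphocyte markers were lower. Cd79a, the partner of Cd79b, differed by 0.05 ± 0.52 (adjusted p = 0.968) and Cd3e, a subunit of the T cell receptor complex, by -0.18 ± 0.14 (0.474). The T cell genes Cd8a (-2.66 ± 0.75) and Cd5 (-1.08 ± 0.32) were called, but in 3 and 2 of 8 fits with 1 array left out. Cd8a was well above background on 1 of the 4 knockout arrays, and its difference with normexp was -0.40. With 1 array left out between 1 (without Fah-/- replicate 2) and 5 markers were called, and 2 without Fah-/- p21-/- replicate 3. Without both female arrays 3 were called (1.38% of all features called lower), in the 8 arrays alone 3 and within the shared slide 1 (0.754%). With slide as a fixed block none was called and the median was -0.48, none was in the 12 arrays without NTBC alone, and with normexp none was and the median was -0.21. The part of lymphocyte number in the lower interferon genes was not tested.

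Markers of other liver cell types were read as well. Of 29 macrophage and Kupffer cell markers 1 rose and 1 fell, near the 7.53% of all features called, and the list's mean level ranged from 1.05 to 2.31 in Fah-/- liver and from 0.43 to 2.34 without p21. Cd163, the haemoglobin scavenger receptor, rose by 1.33 ± 0.27 (adjusted p = 0.00439), from 0.63, 0.35, 0.13 and -0.02 to 2.26, 0.77, 1.82 and 1.56. The macrophage-defining Adgre1 (-0.36 ± 0.36) and Clec4f (-0.22 ± 0.24) were not called. Of 29 endothelial markers 2 fell, Tie1 (-0.51 ± 0.15) and Emcn (-0.54 ± 0.16), beside 3.59% of all features called lower. The list ranged from 1.02 to 1.20 against 0.56 to 1.13, lowest in the female arrays. Of the 29 endothelial differences 26 were negative, and 12 markers were called lower with the 2 male arrays left out (3.8% of all features), against 0 with the 2 female arrays left out. Of 38 stellate cell and matrix genes and of 9 erythroid markers none was called.

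Ltf, which encodes the iron-binding lactoferrin of neutrophil granules and secretions, was 1 of the largest rises. It was at -4.87, -4.72, -4.80 and -4.54 in Fah-/- liver and at -1.92, -2.34, -0.94 and -0.77 without p21. The groups were far apart, and the difference of 3.24 ± 0.56 (adjusted p = 0.00109) was called under all 25 alternatives. It was the 1 called gene of 10 tested neutrophil markers, beside 3.94% of all features called higher. The list's mean level was -2.76, -2.45, -2.86 and -2.70 against -1.10, -3.38, -2.17 and -1.87. Of 22 tested chemokines 1 was called lower, beside 3.59% of all features, but 18 differences were negative and the median was -0.74. For 8 of the 22 all knockout arrays lay below all controls, beside 5.86% of all features. The list's mean level was -1.05 to -0.50 in Fah-/- liver and -1.98 to -1.17 without p21. The called gene was Ccl8, a monocyte attractant. Ccl8 was not well above background on any knockout array and was at least 3.24-fold lower (adjusted p = 0.0057). Cd209d, a lectin receptor of antigen-presenting cells, was at least 3.57-fold lower (0.000324), and neither was called with normexp.

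**Figure D3:**
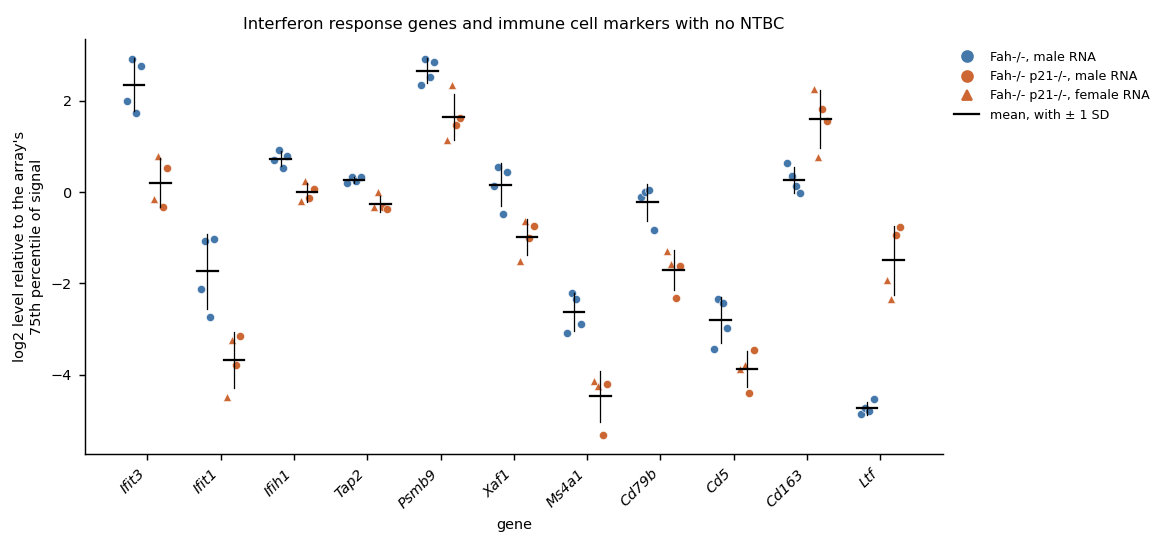
Log2 level relative to the array's 75th percentile (y axis) of 6 interferon response genes and 5 immune cell markers in each of the 4 Fah-/- (blue) and 4 Fah-/- p21-/- (orange) arrays without NTBC, triangles marking female RNA, with means and SD bars. Ifit3 and Ms4a1 are lower on every Fah-/- p21-/- array, and Cd163 and Ltf higher.

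Hepatocyte function genes were read by list. Of 44 secreted plasma proteins 5 fell and none rose, with a median of -0.17, beside 3.59% of all features called lower, and Alb, the main plasma protein, differed by 0.15 ± 0.10 (adjusted p = 0.381). The 5 included components of the complement membrane attack complex. C8a was at 0.68, 1.0, 1.04 and 1.45 in Fah-/- liver and at -2.66, -1.34, -2.51 and -1.28 without p21. No arrays overlapped, and C8a fell by 2.99 (SE 0.44, adjusted p = 0.000216), with a mean of 5.84 in Fah-/- liver on full NTBC. C9 fell by 2.31 (SE 0.55, 0.0129), and the hyaluronan-binding protein gene Itih1 by 0.92 (SE 0.21, 0.0107). The SD of C9 was 0.40 over the Fah-/- arrays and 1.54 over the Fah-/- p21-/- arrays.

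Among 23 acute phase genes 3 fell and none rose, beside 3.59% of all features called lower. Both short pentraxins were among the 3, while the median of the list was 0.20 and 13 of the 23 differences were positive. Apcs, which encodes serum amyloid P, was at 2.93, 3.11, 3.53 and 3.23 in Fah-/- liver and at 0.92, 2.04, 1.23 and 1.51 without p21. It fell by 1.78 (SE 0.26, adjusted p = 0.000221). Crp, C-reactive protein, fell by 2.28 (SE 0.38, 0.000845), with 3 of 4 knockout arrays well above background. Both calls were kept without the female arrays.

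Of 25 genes of bile acid synthesis and transport 2 fell, with a median of -0.07, beside 3.59% of all features called lower. Cyp7a1, the rate-limiting enzyme of bile acid synthesis, was at 0.51, 2.63, 1.26 and 2.71 in Fah-/- liver and at -2.26, -0.08, -1.36 and -1.75 without p21. Every knockout array was lower, and the difference was -3.14 ± 0.54 (adjusted p = 0.00113), called in 24 of 25 alternatives. Fgfr4, the receptor through which the gut hormone FGF15 represses Cyp7a1, fell by 0.85 (SE 0.22, 0.0206), lost without Fah-/- replicate 2 or 4 or Fah-/- p21-/- replicate 1.

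Of 25 genes of cholesterol synthesis 1 fell, near the 3.59% of all features called lower, and 21 differences were negative with a median of -0.14. The called gene was Acat2, a cytosolic thiolase at the head of the pathway. Acat2 was at 3.22, 3.72, 3.89 and 3.81 against 2.08, 2.59, 2.01 and 2.27, a difference of -1.43 ± 0.17 (adjusted p = 1.8e-05) with no overlap. Slc2a2, the glucose transporter of hepatocytes, fell by 1.88 (SE 0.39, 0.0051), with Fah-/- replicate 1 and Fah-/- p21-/- replicate 2 overlapping. Of 24 hepatocyte transcription factors 4 fell, 17 differences were negative and the median was -0.22, beside 3.59% of all features called lower, and none was called without the female arrays. Foxa1, a pioneer factor of liver development, was at -0.66, -1.19, -1.16 and -0.62 against -2.45, -2.14, -1.62 and -1.67 and fell by 1.06 (SE 0.24, 0.00782). The female arrays had its lowest levels, and without them the difference was -0.73 (adjusted p = 0.168). None of the 8 genes of tyrosine and phenylalanine breakdown was called, and Hpd, the target of NTBC, differed by 0.11 ± 0.22 (0.809).

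Of 41 cytochrome P450 genes of families 1 to 4, 2 rose and 4 fell, beside 3.94% and 3.59% of all features. Without the female arrays none was called higher and 1 was called lower (1.38% of all features). Cyp2b9, a female-predominant enzyme of drug and steroid oxidation, was at -0.45, 0.74, 0.44 and 0.76 in Fah-/- liver and at 3.38, 5.55, 4.77 and 4.82 without p21. All knockout arrays were far above the controls, male as well as female. The difference was 4.26 ± 1.06 (adjusted p = 0.0163), and 4.42 with an adjusted p of 0.0727 without the female arrays. High Cyp2b9 was not particular to this group. Its mean was 0.82 in Fah-/- liver on full NTBC but 4.47 on reduced NTBC. In Fah-/- p53-/- liver it was 5.60 on reduced, 4.63 (SD 3.84) on full and 3.77 without NTBC. Of these groups only the last was female. Cyp2b13 rose by 3.97 ± 1.07 (0.025), a call kept in 4 of 8 fits with 1 array left out, but its sequence is close to that of Cyp2b9 and the probes may not separate them. The sulfotransferases Sult2a3, Sult2a4 and Sult2a6 rose by 3.69 ± 0.74, 3.33 ± 0.55 and 3.37 ± 0.70, and are likewise near-identical to each other. Cyp2c23, an arachidonic acid epoxygenase, fell by 1.32 (SE 0.31, 0.0111), with arrays of the groups overlapping.

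Transcripts known to differ between the sexes were read as lists because 2 of the knockout arrays were female. Of 30 female-biased liver transcripts 4 rose, among them Cyp2b9, Cyp2b13 and Fmo2, beside 3.94% of all features called higher. None of the list was called higher without the female arrays (1.85% of all features). Without them Cyp2b9 differed by 4.42, Cyp2b13 by 4.09 (adjusted p = 0.108) and Fmo2 by 0.83 (0.0734). With them Fmo2 differed by 0.82 ± 0.20. The mean level of that list was 0.40, 0.96, 0.52 and 0.38 in Fah-/- p21-/- replicates 1 to 4, and -0.10 to 0.27 over the Fah-/- arrays. Of 25 male-biased transcripts 1 fell, C8b (-1.50 ± 0.43, adjusted p = 0.0355), near the 3.59% of all features called lower. This list was at 0.24, 1.14, 1.19 and 1.79 in Fah-/- p21-/- replicates 1 to 4 and at 1.43 to 1.72 in Fah-/- liver. Kdm5d, on the Y chromosome, was called lower, and it was lower in the 2 males too (-2.70 and -2.43 against -2.03 to -1.69, adjusted p = 0.0158).

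Among NRF2 targets, which answer oxidants, 4 of 44 rose and none fell, with a median of 0.29 and 41 positive differences, beside 3.94% of all features called higher. Without the female arrays 1 was called, Hmox1, and within the shared slide none. Hmox1, which breaks down heme, was at 5.10, 5.51, 5.91 and 4.91 in Fah-/- liver and at 6.62, 6.82, 6.97 and 6.77 without p21. The arrays did not overlap, and Hmox1 rose by 1.44 ± 0.28 (adjusted p = 0.00315), called in 24 of 25 alternatives. Me1, a source of NADPH, rose by 0.97 ± 0.22 (0.0102), Fth1, the ferritin heavy chain, by 0.41 ± 0.10 (0.0121), and Nqo1, a quinone reductase, by 0.68 ± 0.20 (0.0397) with overlapping arrays. The Nqo1 call was kept in 3 of 8 fits with 1 array left out. Without the female arrays the adjusted p of Me1 was 0.0591, that of Fth1 0.181 and that of Nqo1 0.454. Slc7a11, the cystine importer, differed by 0.12 ± 0.49 (0.919).

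Of 31 genes of fatty acid oxidation and targets of PPARA 4 rose and none fell, with a median of 0.22, beside 3.94% of all features called higher. Without the female arrays none was called higher and 1 was called lower, and within the shared slide the counts were the same. Acadvl, the first enzyme of long-chain oxidation in mitochondria, rose by 0.60 ± 0.13 (adjusted p = 0.00543) and Cpt2, of the carnitine shuttle, by 0.58 ± 0.12 (0.00524). Neither passed without the female arrays (0.0823 and 0.120). Of 40 respiratory chain genes none was called, although 37 differences were positive.

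Among 27 tested markers of fetal liver or liver tumours, 5 were called higher and 1 lower, with a median of -0.13, beside 3.94% and 3.59% of all features. None of these 6 calls was kept without the female arrays, where Igf2bp2 had an adjusted p of 0.0662 and Pkm of 0.0548. Igf2bp2, an RNA-binding protein of fetal tissue, was at -2.49, -3.12, -3.15 and -3.24 against -0.15, -2.10, -1.87 and -2.24, highest in female replicate 1. It rose by 1.41 ± 0.33 (adjusted p = 0.0102). Pkm, pyruvate kinase of fetal liver, rose by 0.79 ± 0.19 (0.0141), a call lost without Fah-/- p21-/- replicate 1 (0.0542). Afp, the fetal albumin, was at 8.24 to 8.37 in Fah-/- liver and at 8.23 to 8.51 without p21, a difference of 0.05 ± 0.57 (0.972). Its SD was 0.06 in Fah-/- liver and 0.13 without p21, but 1.95 in Fah-/- p53-/- liver on full NTBC, which enters the SE. Igf2 (-1.26 ± 0.80, 0.368), H19 (-0.21 ± 0.68, 0.893) and the surface proteoglycan Gpc3 (0.45 ± 0.43, 0.567) were not called.

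**Figure D4:**
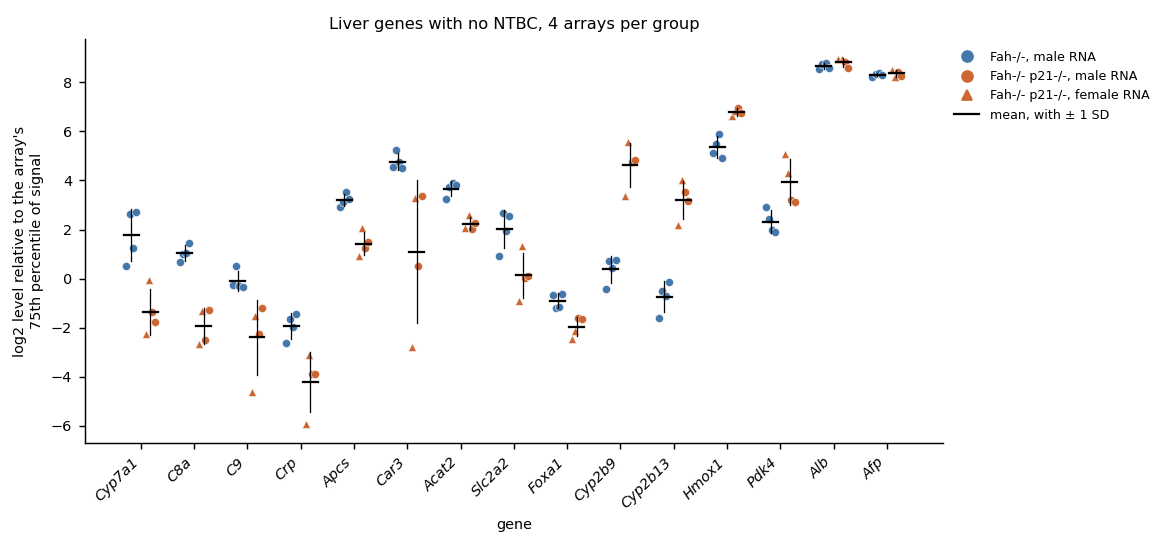
Log2 level relative to the array's 75th percentile (y axis) of 15 liver genes in each of the 4 Fah-/- (blue) and 4 Fah-/- p21-/- (orange) arrays without NTBC, triangles marking female RNA, with means and SD bars. Cyp7a1, C8a, Apcs and Acat2 are lower and Cyp2b9 and Hmox1 higher on every Fah-/- p21-/- array, while Alb and Afp overlap.

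Several of the largest differences were in genes of none of these lists. Nlrp12, an inhibitor of inflammatory signalling, was not well above background on any Fah-/- array and was at -1.19, -1.56, -0.30 and -0.57 without p21, at least 25.8-fold higher (adjusted p = 1.2e-05). Its mean was 2.16 in Fah-/- liver on full NTBC and -1.80 in Fah-/- p53-/- liver without NTBC. Imp4, of ribosomal RNA processing, was not well above background in Fah-/- liver either and was at -2.83, -3.45, -3.58 and -3.47 without p21, at least 4.80-fold higher (3.0e-12). Shisa3, a membrane protein that dampens Wnt and FGF receptors, rose by 3.57 ± 0.72 (0.0037), with 1 of 4 Fah-/- arrays well above background, and Tiam2, an activator of the GTPase Rac, by 3.52 ± 0.82 (0.0111).

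Among the falls B3galt1, a galactosyltransferase, was at -1.63, -0.65, -1.36 and -0.61 in Fah-/- liver and at -4.12, -4.26, -3.64 and -3.88 without p21. It fell by 2.91 (SE 0.27, adjusted p = 7.0e-07), called under all 25 alternatives. Tescl was at -0.50, 0.17, 0.02 and -0.14 against -5.78, -7.24, -7.21 and -4.53, with 1 of 4 knockout arrays well above background, and fell by 6.08 (SE 0.93, 0.00035). The RNA-binding protein gene Rbm45 was at -0.97, -1.13, -0.73 and -1.10 against -3.95, -1.82, -4.64 and -4.51, so that female replicate 2 was nearer to the controls than the other 3. It fell by 2.74 (SE 0.39, 0.000153). Tmem145 was at least 3.01-fold lower (3.6e-05), and neither it nor Imp4 was called with normexp.

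Called genes were also counted by their place on the chromosomes. On chromosome 17, which carries Cdkn1a, 11.7% of the tested genes were called, against 5.41% to 10.4% on the other 18 autosomes, and 7.74% of all genes with a symbol. Without the female arrays the shares were 6.46% and 1.73% to 5.79%. Of the 36 genes tested among the 40 on each side of Cdkn1a 7 were called, 4 of them also without the female arrays. Dnah8, a dynein chain, 39 genes away, was at -3.69, -4.65, -4.30 and -4.45 against -1.17, -2.09, -1.61 and -2.04 and rose by 2.54 ± 0.39 (adjusted p = 0.000352). Cpne5, a copine, 4 genes away, rose by 0.99 ± 0.15 (0.00038). Prim2 and Imp4 were also near each other, on chromosome 1 with 19 genes between them. Whether the Fah-/- p21-/- mice differ from the Fah-/- mice at linked or other loci was not tested.

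**Figure D5:**
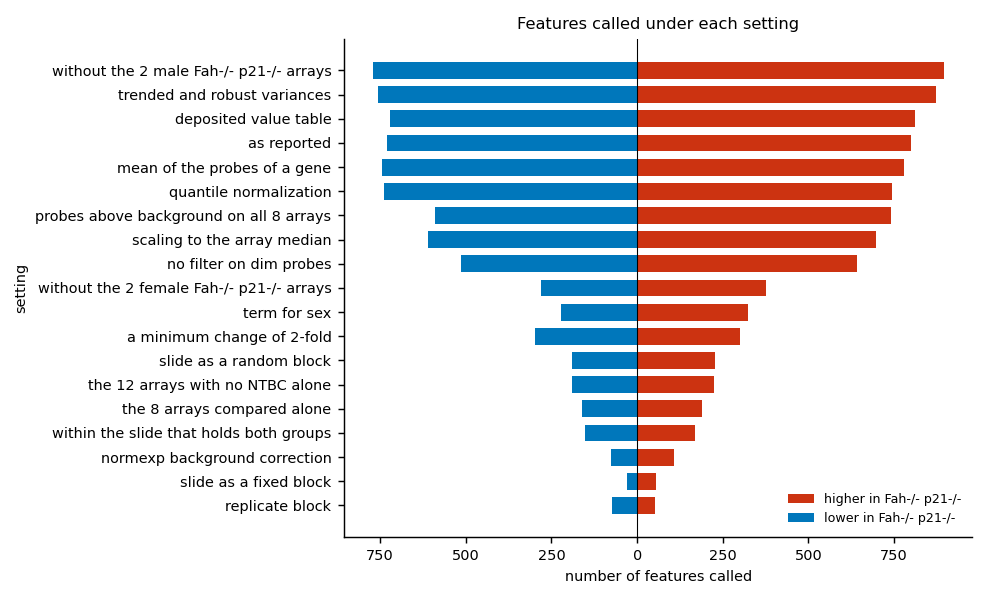
Number of features called at an adjusted p under 0.05 (x axis), higher to the right and lower to the left of 0, under each setting of the analysis (y axis). The count as reported was 1529, and it was lowest with slide as a fixed block (85), with the replicate number as a block (126) and with normexp background correction (183).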

How the data were processed

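Liver RNA was hybridised to single-colour Agilent whole mouse genome arrays, 1 sample per array. The authors deposited scanner files from Agilent Feature Extraction, of which the file headers give version 10.7.3.1 and the submitters' processing notes 10.5. They hold, per the file headers, a background-subtracted processed intensity and the median intensity of spot and background. The deposited value table, on a log2 scale, was used as an alternative. From the files, 1639 control spots and 2525 outlying spot readings were left out, spots were averaged to 41174 probes, and log2 intensities were scaled to each array's 75th percentile. A probe entered if at least 1 group had it well above background on all its 4 arrays. Symbols came from RefSeq accessions (28462 probes), and the brightest probe stood for a gene. The limma package (3.58.1, R 4.3.3) fitted 7 group means over 28 arrays, with Benjamini-Hochberg adjustment over 20300 features. In simulated data for this comparison (20300 features) 71% of 100 genes changed by a log2 of 1 and 94% of 100 changed by 2 were recovered, with 13 of 20100 unchanged genes called. The simulated noise was independent between arrays, with the same spread of a gene in every group and no effect of sex or slide. It therefore cannot show how many of the 1529 calls are false in the real arrays.

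The members and the 44 gene lists were chosen with earlier results of these data known. The rule for named genes allows Fah, Trp53 and Cdkn1a, the 15 largest rises and 15 largest falls whose arrays do not overlap, at most 6 called genes per list, a fixed panel of genes, and called neighbours of Cdkn1a. The text names fewer, and some uncalled or further list members chosen after their values were seen. Alternatives were normexp (offset 50, on median intensities, since mean intensities were not among the columns), quantile or median scaling, the deposited table, other filters, the mean of a gene's probes, smaller fits, trended variances, blocks for replicate and slide, a term for sex, a 2-fold minimum and each array left out. Leaving out the male Fah-/- p21-/- arrays was added after the data were seen. Slides come from the array identifiers and sex from Xist and Ddx3y. The number of arrays limits the precision.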

Additional observations from a re-analysis of the deposited data

Results flagged for a closer look

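Within groups of 4 arrays, 14 of 236 groups (118 genes, 2 groups each) had 1 array far from the other 3, where chance alone does so in about 1 in 20 groups. In Fah-/- liver, replicate 1 stood low for Fah (-2.72) and Serpinf2 (5.74) and high for Igf2bp2 (-2.49) and Shisa3 (-4.77), replicate 2 high for C9 (0.50), and replicate 3 low for Aunip (-4.75) and Fth1 (8.10). In Fah-/- p21-/- liver, female replicate 1 stood low for Nek2 (-0.96) and Ckap2 (-1.12), and female replicate 2 low for Plau (-7.21) and high for Tap2 (0.0102). Male replicate 3 stood high for Cdkn1a (3.57) and low for Ms4a1 (-5.32) and Itih1 (-1.87).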

How the results depend on the processing

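The 1529 calls (800 higher, 729 lower) fell to 183 (108 and 75) with normexp, 352 (190 and 162) in the 8 arrays alone, 414 (225 and 189) in the 12 without NTBC, 85 (56 and 29) with slide as a fixed block, 415 (226 and 189) with slide as a random block, 323 (170 and 153) within the shared slide, 655 (375 and 280) without the female arrays, 545 (323 and 222) with a term for sex and 597 (299 and 298) at a 2-fold minimum. Leaving out single arrays gave 784 to 1491 (427 to 848 higher, 357 to 665 lower), lowest without Fah-/- replicate 4 (784) or 2 (847). Deviations of the genes from their group means correlated at 0.36, 0.06, -0.04 and -0.04 between same-numbered arrays of the groups. Between differently numbered arrays they ranged from -0.33 to 0.30, so the replicate numbers were not taken as pairs. With the replicate block 126 were called (53 and 73). The other settings, namely quantile and median scaling, the deposited table, no filter, a filter on the 8 arrays, averaged probes, trended variances and the female arrays without the males, stayed within 1.5 times. Of 100 called genes examined one by one, 62 kept their call with each array left out and 5 under every alternative, with no change of sign. Normexp called 36 of them, the fit to the 8 arrays alone 39, slide as a fixed block 16 and the replicate block 22. The cause of these losses was not tested. Dim genes limit the comparison, since a probe near background has only a bound.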
